A study of Mus musculus with 6 samples.

Results

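The Sp genes encode zinc-finger transcription factors, and Sp8 is the gene whose product was mapped here. The 9 genes Sp1 to Sp9 were taken by symbol from the RefSeq gene table of mouse assembly GRCm38.p6, and all 9 were found among its 21523 protein-coding genes on the autosomes and chromosome X. Around each gene, every peak of the authors' list for SP8 replicate 1 was collected whose centre lay inside the gene or at most 500 kb from it. The list came from chromatin immunoprecipitation and sequencing of E10.5 forelimb ectoderm, pooled from 50 limb buds of embryos homozygous for a knock-in Sp8 allele (Sp8FL KI, C57BL6J background) that encodes SP8 with a FLAG tag. The antibody was directed against the tag, so the immunoprecipitation was aimed at SP8 and not at the other family members. Of the 6 libraries, the second SP8 immunoprecipitation, the 2 SP8-FLAG inputs, and the H3K4me2 immunoprecipitation and input from wild-type embryos have no separate values analysed here. All values below therefore describe 1 list, with no replicate or input compared here, and sequencing depth is unknown. Which control was used to call the list, and whether libraries were pooled, is not stated.

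SP proteins bind GC boxes and related CACCC boxes in DNA through a set of zinc fingers near their C-terminus. SP1 to SP4 carry glutamine-rich activation domains. SP1 to SP3 are widely expressed, whereas SP5 to SP9 are expressed in restricted tissues. In the limb bud, SP6 and SP8 act in the ectoderm downstream of Wnt and beta-catenin signalling, where they are needed for the apical ridge and its Fgf8 expression. SP9 is also made in the ridge. Ectoderm markers could not be checked, since no expression was measured.

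The list placed 16 of its 1451 peaks inside or within 500 kb of an Sp gene. Of the 9 genes, 4 (Sp1, Sp3, Sp6 and Sp8) had a peak centre inside, where 3.47% of all protein-coding genes had one. Sp4 joined them within 10 kb, making 5 of 9 against a background of 6.48%. Within 100 kb the count was 8 of 9, against 20.1%, and Sp9 was the member without a peak. All 9 had a peak within 500 kb, a window in which 51.0% of protein-coding genes had one. These counts overstate the number of separate observations, because 10 of the 16 peaks lay in the windows of 2 neighbouring Sp genes.

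**Figure D1:**
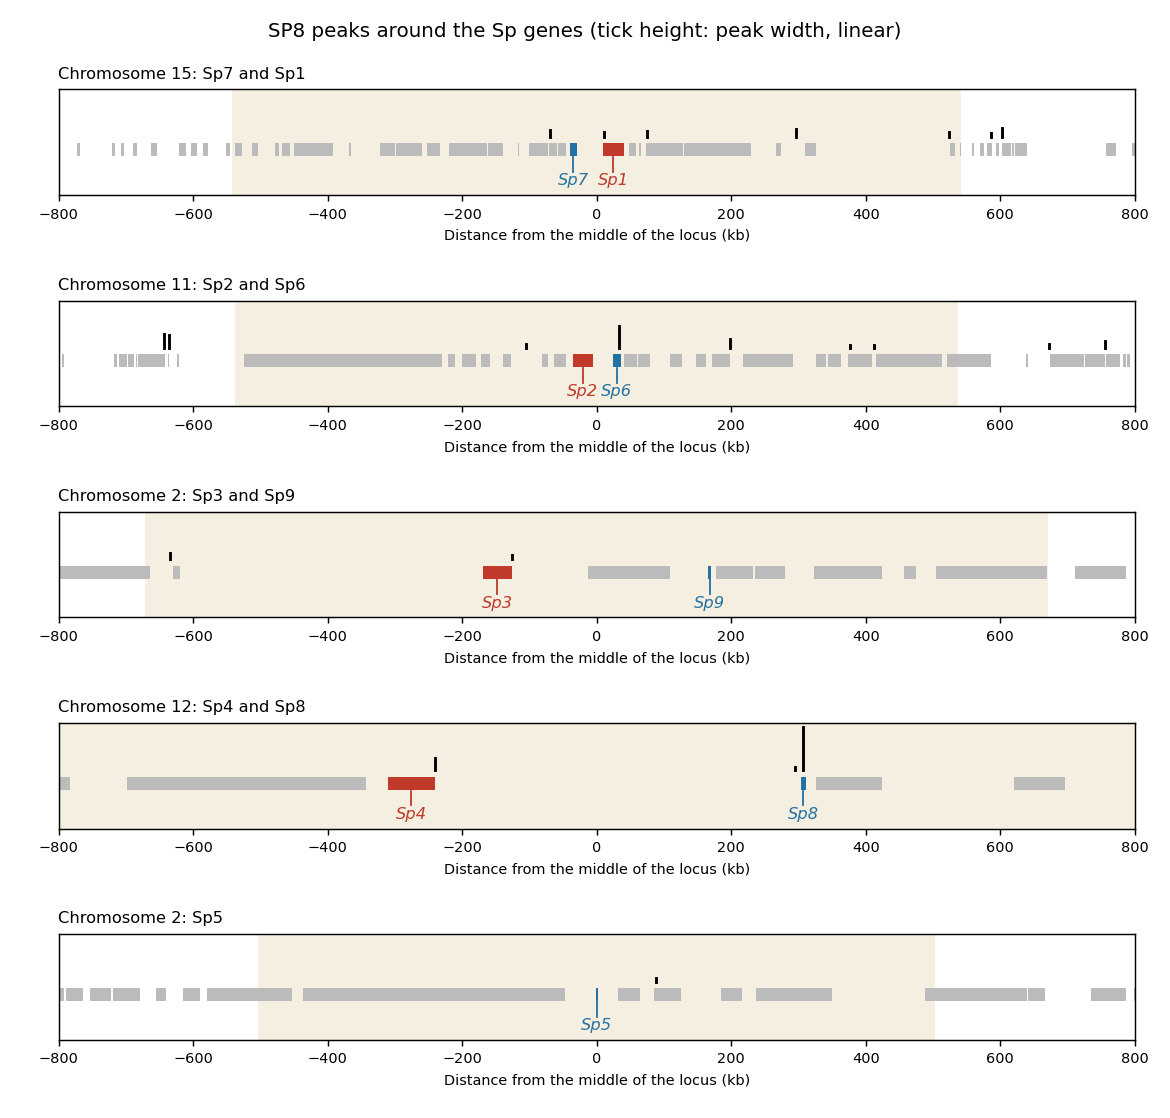
Maps of the 5 loci that hold the 9 Sp genes, with distance from the middle of each locus in kb on the horizontal axis. Boxes are protein-coding genes (red for Sp1 to Sp4, blue for Sp5 to Sp9, grey for others), black ticks are SP8 peaks with height proportional to width, and shading marks the 500 kb windows. Peaks stand on Sp1, Sp3, Sp4, Sp6 and Sp8, and the tallest tick is the 3587 bp peak on Sp8.

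Sp8 had 2 peaks in its window, and both were nearer to Sp8 than to any other protein-coding gene. The gene spans 6291 bp on chromosome 12, from 118846288 to 118852578, on the forward strand. Peak 25 of the list (118847300 to 118850887) lay wholly inside it, began 1012 bp after the lower gene end and stopped 1691 bp before the upper one. Its width of 3587 bp was the largest in the list, whose median was 336 bp. Peak 265 (118836460 to 118836766, 306 bp) lay 9.68 kb upstream of the gene and was narrower than the median of the list. Peak 25 was the last of the 58 peaks on chromosome 12. The Sp8 locus is the one altered in these embryos, and whether the input showed signal at this place was not tested.

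RefSeq lists 3 start sites for Sp8, and the wide peak covered one of them. The outer start, at 118846329, lay 972 bp before the peak. The middle start, at 118847233, lay 68 bp before its upstream edge. The inner start, at 118847559, was inside the peak, which reached from 258 bp before it to 3328 bp after it. The 250 bases before the middle and the inner start are shown because they lie on either side of the edge of the peak. They are written 5′ to 3′ from the RefSeq promoter table of GRCm38.p6. Capitals mark 3 motifs, searched on both strands with overlaps allowed. The first is the GC box, spelled GGGCGG. The next is the CACCC box, searched as the letters of its name. The last is TAATTA, a core that many homeodomain proteins bind.
Sp8 middle start, chr12:118846983-118847232, forward strand: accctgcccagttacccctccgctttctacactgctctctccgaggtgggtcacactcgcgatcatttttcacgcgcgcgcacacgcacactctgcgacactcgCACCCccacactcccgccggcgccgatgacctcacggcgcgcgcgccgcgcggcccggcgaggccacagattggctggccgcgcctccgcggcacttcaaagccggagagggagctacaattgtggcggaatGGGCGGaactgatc
Sp8 inner start, chr12:118847309-118847558, forward strand: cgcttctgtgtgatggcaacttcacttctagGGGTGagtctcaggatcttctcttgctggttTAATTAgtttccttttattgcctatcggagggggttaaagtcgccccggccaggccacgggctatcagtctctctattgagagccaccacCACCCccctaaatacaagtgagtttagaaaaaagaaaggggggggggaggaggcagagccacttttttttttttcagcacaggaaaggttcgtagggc
The window before the middle start had 1 GC box, 1 CACCC box, 67.2% GC and 32 CpG dinucleotides, and it lay 69 bp outside the peak. The window before the inner start lay under the peak over all 250 bases, and it had no GC box, 2 CACCC boxes, 1 TAATTA, 50.0% GC and 6 CpG. The window before the outer start had 1 CACCC box and neither of the other motifs, with 40.8% GC.

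Sp6, whose product shares the ectodermal role of SP8, carried the second widest peak near a member. Peak 642 (chromosome 11, 97021240 to 97023064) was 1824 bp wide, ranked 10 by width among the 1451 peaks, and lay wholly inside the gene (97013569 to 97024739). It began 7671 bp after the lower gene end and stopped 1675 bp before the upper one, covering 16.3% of the gene. The next peaks were peak 1181 at 129.4 kb, peak 1190 at 162.7 kb, peak 1444 at 341.2 kb and peak 728 at 375.8 kb. Each of these 4 had another protein-coding gene closer to it, namely Copz2 for peak 1181, Kpnb1 for peak 1190 and Socs7 for the others. Sp6 and Sp7 have no entry in the promoter table used here, so no start site or strand was assigned to them.

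Sp9 and Sp5 had 1 peak each in their windows. For Sp9 (chromosome 2, 73271926 to 73275771) it was peak 1259 at 292.3 kb, which lies inside Sp3. On the other side of Sp9 the next peak, number 754, was 1477 kb away. Sp5, a gene known as a direct target of Wnt signalling (chromosome 2, 70474923 to 70477726), had peak 768 (70564268 to 70564536, 268 bp) at 86.7 kb, inside Gad1. On its other side the next peak was 2092 kb away. A gene without a nearby peak in this list cannot be told apart from one bound below the authors' calling threshold.

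Sp7, which encodes the osteoblast factor also called Osterix, had 4 peaks in its window and none within 10 kb. The gene lies on chromosome 15 from 102356603 to 102367035. Peak 73 (102326085 to 102326632, 547 bp) was 30.2 kb away, inside Pfdn5. Peak 345 was 39.7 kb away and lies inside Sp1. Peaks 602 and 483 followed at 103.7 and 325.9 kb, the first inside Pcbp2 and the second nearest to Calcoco1. No peak in the window of Sp7 was thus nearest to Sp7 itself.

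**Figure D2:**
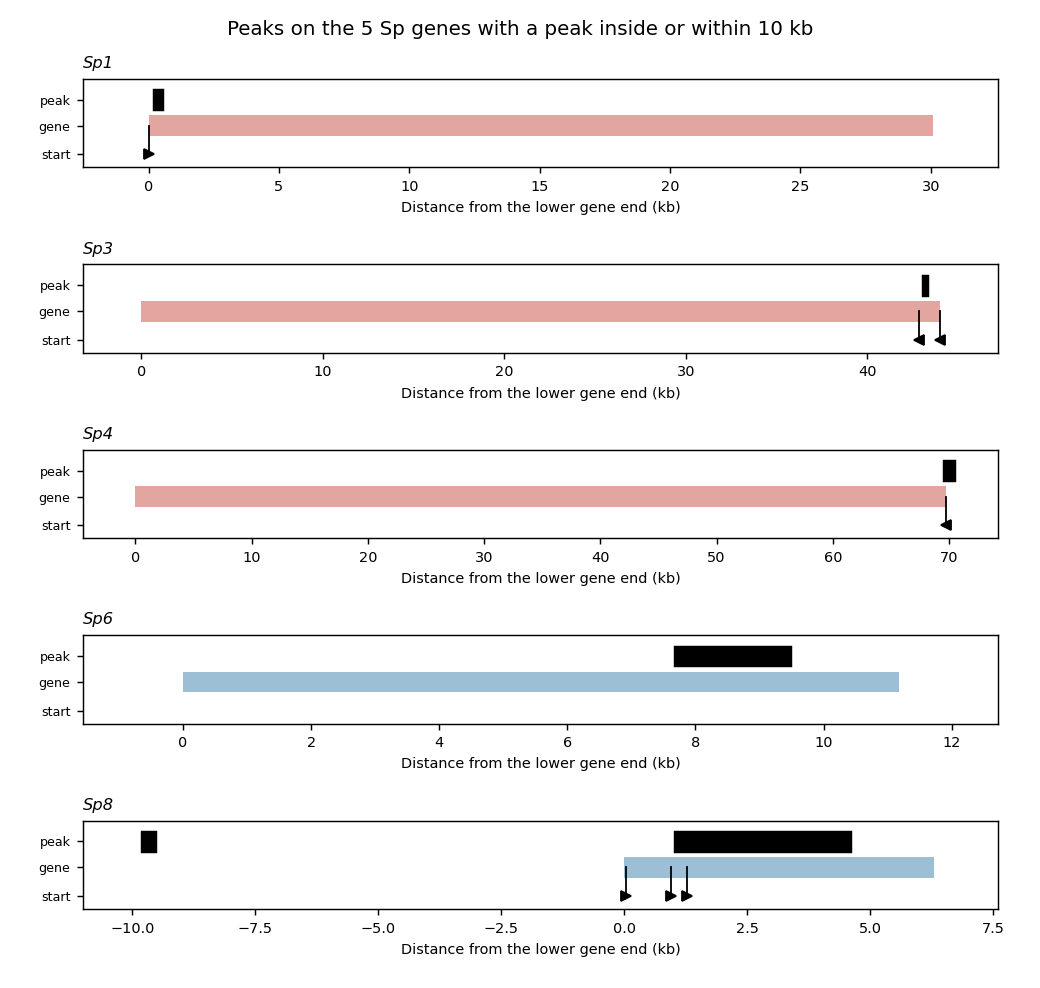
The 5 Sp genes with a peak inside or within 10 kb, drawn with distance from the lower gene end in kb. Coloured bars are genes (red for Sp1, Sp3 and Sp4, blue for Sp6 and Sp8), black boxes are peaks to scale and arrowheads are RefSeq start sites with their direction, which the table used here does not give for Sp6. The peaks on Sp1, Sp3 and Sp4 sit at one end of a long gene, and the peak on Sp8 covers 57.0% of a short one.

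Sp1, Sp3 and Sp4 shared a pattern, with 1 peak each at the 5′ end of the gene. The centre of that peak was 380.5 bp from the start site of Sp1, 327 bp from the nearer start of Sp3 and 250.5 bp from the start of Sp4. These were 3 of the 7 members with a listed start site. In the whole promoter table, 2.91% of 17274 protein-coding genes had a start less than 1 kb from a peak centre. Sp8 was not counted by this measure, since the centre of its wide peak was 1.53 kb from the inner start, although the peak covered that start.

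At Sp1, the founding member of the family (chromosome 15, 102406316 to 102436404, forward strand), peak 345 (102406502 to 102406891, 389 bp) ran from 187 to 575 bp after the start. At Sp3 (chromosome 2, 72936430 to 72980446, reverse strand), peak 1259 (72979434 to 72979782, 348 bp) lay between both start sites, from 501 to 154 bp upstream of the inner start. At Sp4 (chromosome 12, 118231686 to 118301440, reverse strand), peak 1245 (118301164 to 118302217, 1053 bp) spanned the start, from 777 bp before it to 275 bp after it. The Sp1 peak thus lay downstream of the start, the Sp3 peak upstream of the inner one, and the Sp4 peak across it.

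The 250 bases before these starts are shown for comparison with Sp8, together with those of Sp9, which had no peak within 100 kb. Capitals mark the same motifs.
Sp4, chr12:118301441-118301690, reverse strand: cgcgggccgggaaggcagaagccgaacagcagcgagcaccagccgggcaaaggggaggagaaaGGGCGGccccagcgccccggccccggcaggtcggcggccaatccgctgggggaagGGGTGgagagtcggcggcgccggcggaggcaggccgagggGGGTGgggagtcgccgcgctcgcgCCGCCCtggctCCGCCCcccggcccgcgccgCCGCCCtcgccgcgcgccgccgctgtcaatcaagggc
Sp3 inner start, chr2:72979282-72979531, reverse strand: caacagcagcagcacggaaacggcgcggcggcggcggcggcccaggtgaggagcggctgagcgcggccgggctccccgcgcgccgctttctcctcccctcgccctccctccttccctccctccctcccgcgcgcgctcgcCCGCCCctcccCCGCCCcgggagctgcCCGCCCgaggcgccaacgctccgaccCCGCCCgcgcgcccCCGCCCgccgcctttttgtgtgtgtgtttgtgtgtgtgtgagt
Sp1, chr15:102406066-102406315, forward strand: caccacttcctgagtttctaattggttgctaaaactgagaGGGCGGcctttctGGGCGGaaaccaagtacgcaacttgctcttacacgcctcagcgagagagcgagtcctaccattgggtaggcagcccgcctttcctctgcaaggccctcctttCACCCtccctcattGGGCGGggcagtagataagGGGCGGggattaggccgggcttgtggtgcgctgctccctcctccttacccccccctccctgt
Sp9, chr2:73271676-73271925, forward strand: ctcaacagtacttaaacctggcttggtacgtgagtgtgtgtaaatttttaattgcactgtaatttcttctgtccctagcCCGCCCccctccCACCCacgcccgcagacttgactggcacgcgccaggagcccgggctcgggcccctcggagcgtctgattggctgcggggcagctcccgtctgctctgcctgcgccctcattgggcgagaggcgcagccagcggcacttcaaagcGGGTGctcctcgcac
The Sp4 window lay wholly under peak 1245 and had 4 GC boxes, 2 CACCC boxes, 80.0% GC and 37 CpG. The Sp3 window overlapped peak 1259 over 97 bases and had 5 GC boxes, no CACCC box, 77.2% GC and 37 CpG. The Sp1 window was 188 bp from peak 345 and had 4 GC boxes, 1 CACCC box and 59.6% GC. The Sp9 window had 1 GC box, 2 CACCC boxes and 62.4% GC. TAATTA was found in none of these 4 windows.

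Sp2 was the member of its subgroup without a peak within 10 kb. The gene lies on chromosome 11 from 96953332 to 96982959, on the reverse strand, and encodes a widely expressed factor. Its nearest peak, 39.2 kb upstream, was peak 642 inside Sp6. Peak 1181 (96884053 to 96884385, 332 bp) lay 69.1 kb downstream and was nearest to Copz2. The other peaks were those of the Sp6 window, at 204.5, 383.0 and 417.6 kb. Like Sp7, Sp2 was thus the nearest protein-coding gene of none of the peaks in its window. Its 3 listed promoter windows had 53.2 to 55.6% GC, and 1 of them held a GC box.

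Most Sp genes lie in pairs of one member from each subgroup, and the pairs differed in how far they shared peaks. Sp2 and Sp6 are 30.6 kb apart and had the same 5 peaks in their windows. Sp7 and Sp1 are 39.3 kb apart and shared 4 of 5 peaks, the fifth being peak 1144 at 484.5 kb from Sp1, next to Hoxc13. Sp3 and Sp9 are 291.5 kb apart and shared 1 of 2 peaks, the one at the 5′ end of Sp3, and no peak lay between the genes. The remaining peak of Sp3 was number 586 (72471723 to 72472244) at 464.4 kb, nearest to Cdca7. Sp4 and Sp8 are 544.8 kb apart and shared none of 3 peaks. Those 3 peaks stood alone, since the next one below Sp4 was 5303 kb away. Sp5 lies 2459 kb from Sp3 and shared no peak with another member.

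The subgroups had the same number of peaks in their windows, most of them the same peaks, and differed in how near these lay to the genes. Sp1 to Sp4 had 13 peaks within 500 kb and Sp5 to Sp9 also had 13, of which 10 were common to both and 3 belonged to one subgroup alone on each side. A peak centre lay within 10 kb of 3 of 4 genes in the first subgroup and 2 of 5 in the second, beside the background of 6.48%. Within 100 kb the counts were 4 of 4 and 4 of 5, beside the background of 20.1%. Counting a peak only for its nearest protein-coding gene left 3 of 4 and 2 of 5 within 100 kb. The share of all protein-coding genes was not computed by this stricter rule, and the 20.1% does not apply to it. With the first 725 peaks of the list alone, the counts were 1 of 4 and 2 of 5 within 10 kb. Within 100 kb they were 2 of 4 and 3 of 5. The order of the subgroups thus depended on a few genes and on the peaks used. No share of all protein-coding genes was computed for these 725 peaks. The distance to the nearest peak had a median of 0.125 kb and a range of 0 to 39.2 kb for Sp1 to Sp4, and a median of 30.2 kb and a range of 0 to 292.3 kb for Sp5 to Sp9. The ranges overlap, and with 4 and 5 neighbouring genes on 1 list the difference has no test. Gene length differed as well, with medians of 37.1 kb and 6.29 kb.

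**Figure D3:**
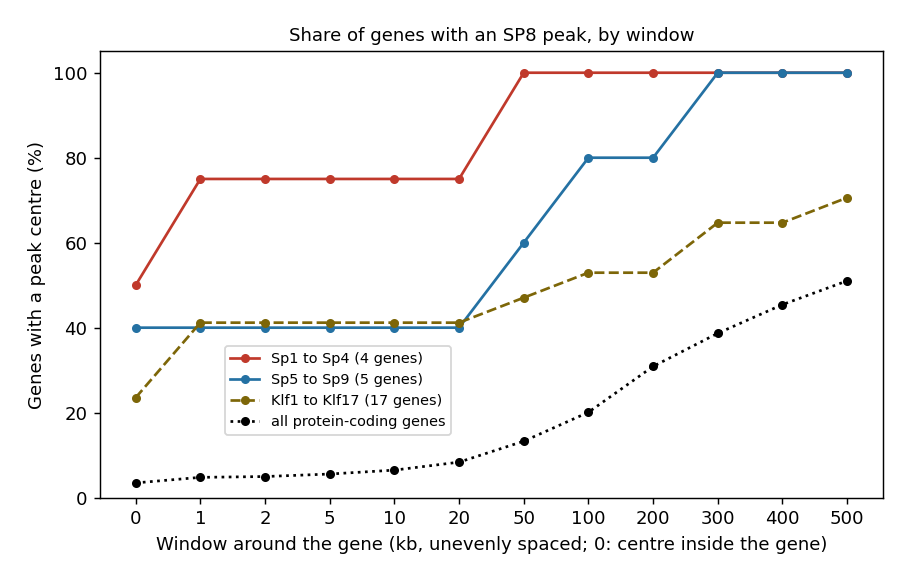
Percentage of genes with an SP8 peak centre inside or within a given window, against window size in kb (unevenly spaced). Lines are Sp1 to Sp4, Sp5 to Sp9, Klf1 to Klf17 and all protein-coding genes. The line of Sp1 to Sp4 stands at 75% from 1 to 20 kb, that of Sp5 to Sp9 at 40% up to 20 kb, and that of all protein-coding genes at 6.48% at 10 kb.

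The widest peaks on members lay in the second subgroup. The peak at the gene was 389 bp for Sp1, 348 bp for Sp3 and 1053 bp for Sp4, against 1824 bp for Sp6 and 3587 bp for Sp8. Both peaks inside genes of the second subgroup were thus wider than all 3 of the first, while peak 265, upstream of Sp8, was narrower than these at 306 bp. Across the 16 peaks the median width was 435 bp, with a range of 258 to 3587 bp, and the quartiles of the whole list were 257.5 and 465.5 bp. Of the 38 peaks wider than 1 kb, 3 lay on members, namely those of Sp8, Sp6 and Sp4.

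List numbers showed no such order. They were 25 for the wide Sp8 peak, 345 for Sp1, 642 for Sp6, 1245 for Sp4 and 1259 for Sp3. The median number of the 16 peaks was 685, beside 726 for the whole list, and 8 of the 16 stood among the first 725. What the number stands for is not given in the sources used here.

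**Figure D4:**
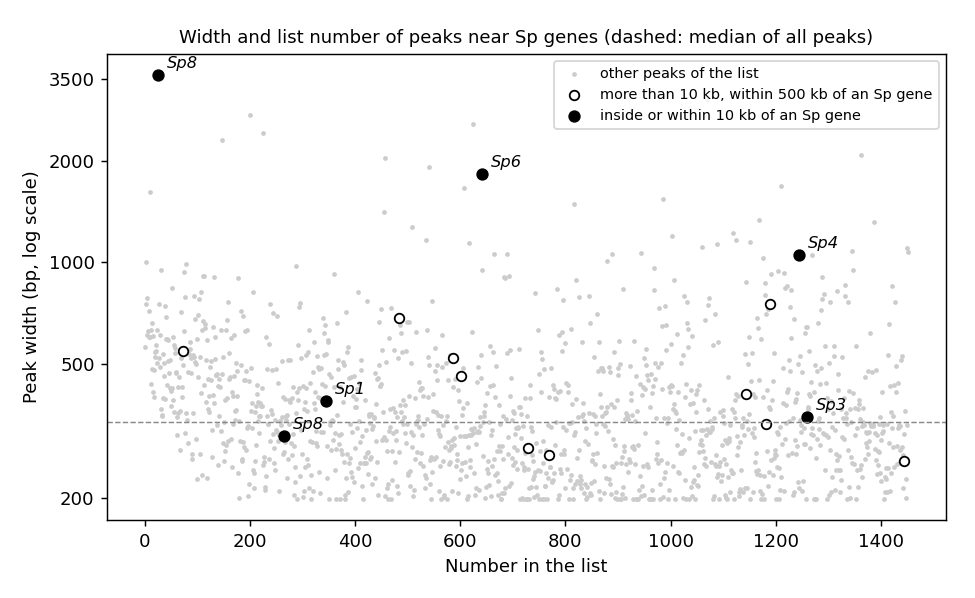
Peak width in bp (log scale) against number in the list for all 1451 peaks. Filled points are peaks inside or within 10 kb of an Sp gene, open points are the other peaks within 500 kb of one, grey points are the rest and the dashed line is the median of 336 bp. The widest peak of the list is on Sp8 at number 25, and the peaks of Sp3 and Sp4 carry numbers 1259 and 1245.

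The share of the gene body under peaks set Sp8 apart from the other members. It was 57.0% for Sp8, 16.3% for Sp6, 1.29% for Sp1, 0.791% for Sp3 and 0.396% for Sp4, and 0% for Sp2, Sp5, Sp7 and Sp9. Any overlap was found for these 5 of 9 members and for 4.27% of protein-coding genes. At least 50% of the gene was covered in 2 protein-coding genes, or 0.00929%, namely Sp8 and the 929 bp predicted gene LOC108167694 at 86.8%. Among the 15867 protein-coding genes at least as long as Sp8, its share ranked 1, which follows from the values above because LOC108167694 is shorter. By this measure over all protein-coding genes, the others most like Sp8 were Zfp503 (49.9%, under 2 peaks), Asmt (49.6%, under 2 peaks), Zfp36l2 (47.7%, under 1 peak of 1918 bp) and Hoxb2 (44.4%, under 1 peak of 1060 bp).

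The promoter windows of the members were then set beside those of all genes. The promoter table held 12 windows for 7 members, and 3 of the 12 overlapped a peak (Sp3 inner start, Sp4, and Sp8 inner start), against 1.99% of the 21045 windows of protein-coding genes. A GC box stood in 7 of the 12, against 43.1% of all windows and 89.5% of the 419 windows that overlapped a peak. A CACCC box stood in 9 of the 12, against 54.4% of all. TAATTA stood in 1 of the 12, that of the inner Sp8 start, against 4.24% of all.

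The Sp8 window under the peak therefore differed in its letters from most windows that overlapped a peak to any extent. Only 131 of those 419 windows lay wholly under a peak, as the Sp8 window did, and these were not compared separately. Of the 419 windows overlapping a peak, 44 had no GC box, 7 had TAATTA, and 4 had TAATTA without a GC box, the Sp8 window being one of them. Its GC content of 50.0% compares with a median of 68.4% over the 419, of which 13 were at or below 50%. The Sp4 window, at 80.0% GC, was among the 34 of the 419 at or above 80%. A match of letters describes the window and not a bound site, and the sequence of the rest of each peak was not used here.

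**Figure D5:**
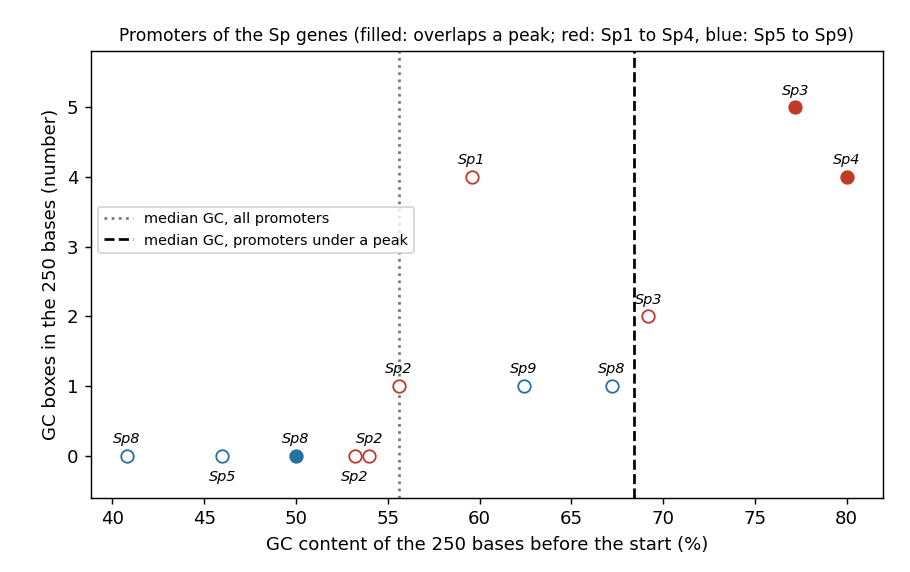
Number of GC boxes against GC content (percent) in the 250 bases before each of the 12 start sites listed for Sp genes. Filled points overlap an SP8 peak and colours give the subgroup. Vertical lines mark the median GC content of all windows (55.6%) and of windows that overlap a peak (68.4%). The filled points of Sp3 and Sp4 lie at 77.2% and 80.0% GC with 5 and 4 GC boxes, and that of Sp8 at 50.0% with none.

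The related KLF genes, which encode factors with similar zinc fingers, had a peak within 10 kb in 7 of 17 cases and within 100 kb in 9 of 17, beside 6.48% and 20.1% of protein-coding genes. The nearest were Klf7, Klf12, Klf13 and Klf14, each with a peak centre inside the gene, where 3.47% of protein-coding genes had one. Sp genes and KLF genes were not tested against each other. In a list of 29 genes chosen as the limb pathway around Sp8, 9 had a peak within 10 kb and 15 within 100 kb. Whether each of these genes is expressed in the ectoderm was not checked. By role, peaks lay within 100 kb of 6 of 12 ligand genes, 0 of 4 receptor genes, and 9 of 13 effector and target genes. The background within 100 kb was 20.1%, the groups are small, and a difference between roles was not tested. A peak centre lay inside 5 of the 29, beside 3.47% of protein-coding genes. These were Jag2 and Wnt3 among the ligands and Dlx1, Dlx2 and Trp63 among the effectors and targets. The next nearest were Fgf8 and Msx2, with a peak centre outside the gene at 0.258 and 0.3565 kb. Peaks still covered 0.775% of Fgf8 and 0.186% of Msx2. Of the receptor genes, Lrp6 had its nearest peak at 259.2 kb, Bmpr1a at 767.0 kb, Fgfr1 at 1316 kb and Fgfr2 at 2286 kb. Thus 1 of the 4 had a peak within 500 kb, beside 51.0% of protein-coding genes.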

How the data were processed

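The authors deposited one list of SP8 peaks, with sequence name, start, end and a running number. The name of the list gives a q threshold of 0.1 and a fold threshold of 3. FastQC, TopHat2, SAMtools, MACS2 and deepTools, and the builds GRCm38 and mm10, are named without a role per the submitters' processing notes. The control library and any pooling are not given in the sources used here. Positions are printed as deposited, and whether starts count from 0 or 1 is not stated. Width is end minus start. Overlaps treated starts as counted from 0.

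Distance ran from the peak centre to the gene body, 0 inside. Genes came from the RefSeq table of GRCm38.p6, without chromosome Y and without starts below 3 Mb. Start sites, strand and promoter sequences came from the RefSeq promoter table, which matched 7 of the 9 members. Exons and protein sequences were not used here. Scripts ran in Python 3.11.15 with pandas 2.3.3 and numpy 2.4.6, and were tested on simulated peaks.

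Members, lists and measures were chosen with earlier results of these data known. The text names the 9 genes, the gene nearest to each peak within 100 kb of one (genes at farther peaks were added after their values were seen), the 5 others with the largest covered share, and the nearest examples of the related lists. The planned limit of 4 examples per list was passed in the limb pathway list, where the 5 genes with a peak inside tie at 0 kb. Fgf8, Msx2 and the 4 receptor genes of that list were named after their values were seen. No chance test was made.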

Additional observations from a re-analysis of the deposited data

How the results depend on the processing

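Over 8 results and 34 alternatives, 26 planned and 8 chosen after the data were seen, 22 stayed within 1.5 times the main count or at the main value, 11 moved and 1 reversed. With the first 725 peaks, 3 members (Sp1, Sp6 and Sp8) had a peak within 10 kb and 5 within 100 kb. Of these peaks, 8 lay within 500 kb of a member. No background share was computed for this part of the list. Counting a peak for its nearest protein-coding gene left 5 members within 100 kb, because the peaks near Sp2, Sp5 and Sp7 lie nearer to other genes. The background share was not computed in that way. A window of 1000 kb gave 25 peaks. Shared peaks numbered 6 with a window of 250 kb and 3 with 100 kb. The share of Sp1 to Sp4 minus that of Sp5 to Sp9 with a peak was 20 percentage points within 100 kb, 35 within 10 kb and 0 within 500 kb. Within 100 kb it became -10 with the first 725 peaks, 40 with peaks at least as wide as the median and 35 with nearest genes only. The value of 20 rests on 1 gene, Sp9. The smaller windows and sets of peaks give fewer peaks by construction. Motifs in the central 200 bases of each peak and identity between SP proteins had been planned and were not run, since neither sequence was used here. No paired analysis was possible because 1 peak list was analysed, which also leaves no replicate to omit.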
